A study of Mus musculus with 9 samples.

Results

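Claudins, the other tight junction proteins and the proteins that set apical-basal polarity were followed as 1 group of genes in EYFP+ mammary cells of 3 mouse genotypes. The members were all genes of the count table whose symbol is Cldn followed by a digit, a Tjp, Marveld, Pard3, Pard6 or Llgl gene, or one of Ocln, F11r, Cgn, Cgnl1, Crb3, Patj, Prkci, Prkcz, Scrib, Dlg1, Esrp1 and Mpp5, the earlier symbol of Pals1. This rule gave 62 of the 55450 genes in the table, and 34 of the 62 were claudins. Low counts kept 21 members out of the tests, and 41 members, 16 of them claudins, were tested among 19357 genes.

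Live EYFP+ cells were sorted by FACS from the third, the fourth and the fifth mammary gland pairs of adult nulliparous female mice, and RNA-sequencing gave 3 libraries per genotype. Control mice were lsl-EYFP;K8CreERT2, the second group was LATS1/2f/f;lsl-EYFP;K8CreERT2 (LATS1/2-KO), and the third carried Sox9f/f in addition (LATS1/2-Sox9-KO). All 9 libraries, control included, came from mice that carried the Cre driver and the EYFP reporter and received 5 daily doses of 2 mg of tamoxifen, with the sort 7 days after the last dose. K8CreERT2 is a tamoxifen-inducible Cre recombinase under the Krt8 promoter, so recombination and EYFP are directed to luminal cells and their progeny, and the sort was for these cells. Library totals ran from 44167762 to 47003587 counts in control, from 50508666 to 61745346 in the LATS1/2-KO-labelled libraries and from 55503365 to 61967651 in the LATS1/2-Sox9-KO-labelled libraries. The labels number the 3 libraries of a group but do not say that each came from a separate mouse, so p-values measure the spread between libraries. In a principal component analysis, replicate 1 of the LATS1/2-KO-labelled libraries stood apart from the other 8 libraries on the third component, which held 6.6% of the variance. Calls of members that were gained or lost without that library are named where they occur.

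Tight junctions seal the space between neighbouring epithelial cells near their apical surface. Claudins span the membrane and form the strands of the junction, and each claudin makes the seal tighter or lets particular ions through. Occludin, its MARVEL relatives tricellulin (Marveld2) and Marveld3, and the adhesion molecule JAM-A sit beside them. The zonula occludens proteins and cingulin tie the strands to actin from within the cell. The PAR and Crumbs complexes define the apical side, and the Scribble complex defines the basolateral side. LATS1 and LATS2 are the kinases of the Hippo pathway that hold back the transcriptional activators YAP and TAZ, and Sox9 is a transcription factor of luminal progenitors. In the mammary duct, the luminal cells carry the tight junctions that become sealed during lactation.

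The targeted genes were read first, in normalized counts, which are counts scaled to the mean effective library size. Lats1 had 5672, 5929 and 5940.4 in the control libraries, 2090.1, 1923 and 2336 in the LATS1/2-KO-labelled libraries and 2058, 1844 and 1709 in the LATS1/2-Sox9-KO-labelled libraries, so it followed the labels. Sox9 had 23313, 19948 and 21534 in control, 7205, 9506 and 12433 in the LATS1/2-KO-labelled libraries and 8812, 6756 and 6459.8 in the LATS1/2-Sox9-KO-labelled libraries. Its level therefore fell in both deletion groups, and the difference between them did not pass the test (log2 fold change -0.40 ± 0.19 SE, adjusted p = 0.25). This difference was -0.58 without replicate 1 of the LATS1/2-KO-labelled libraries (adjusted p = 0.0609). It was -0.19 without replicate 3 of them (adjusted p = 0.626). Lats2 had 1039, 865 and 1219.7 in control, 1256, 1434 and 1723 in the LATS1/2-KO-labelled libraries and 1957, 1580.4 and 1239.7 in the LATS1/2-Sox9-KO-labelled libraries. Its level was higher in the LATS1/2-Sox9-KO-labelled libraries than in control (0.61 ± 0.20, adjusted p = 0.024), and 0.50 ± 0.20 in the LATS1/2-KO-labelled libraries did not pass (adjusted p = 0.0571) and did without replicate 1 of these libraries (adjusted p = 0.0361). Lats2 thus was not lower with either deletion, and the groups are called by their labels throughout. The values sum all exons of a gene, and the floxed exons were not examined on their own.

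Keratins of luminal cells were abundant in every library, with Krt8 at 185913 ± 26146, 278133 ± 14060.5 and 445703 ± 15052 normalized counts (SD, n = 3) in control, the LATS1/2-KO-labelled libraries and the LATS1/2-Sox9-KO-labelled libraries. Of 6 luminal markers, 3 were higher (Krt7, Krt8 and Krt18) and 3 were lower (Krt19, Epcam and Cdh1) in the LATS1/2-KO-labelled libraries than in control. Krt19 was at 190739 ± 27390.4, 93446 ± 36364 and 147761 ± 8785, and Cdh1 at 67238 ± 4762, 49930.1 ± 7290.2 and 57066 ± 9206. The basal keratin gene Krt5 was at 466 ± 104, 486 ± 249 and 1405 ± 858, and was higher in the LATS1/2-Sox9-KO-labelled libraries than in control (1.59 ± 0.55, adjusted p = 0.0298). Trp63, the basal transcription factor p63, had 373, 2153 and 2133 in the control libraries and was at 54.9 ± 14.8 in the LATS1/2-KO-labelled libraries and 85.3 ± 45.8 in the LATS1/2-Sox9-KO-labelled libraries, lower than control in both (adjusted p = 0.000291 and 0.000503). The summed level of 7 myoepithelial markers was 3521, 5039 and 4412 in the control libraries, 9964, 17144 and 12800.3 in the LATS1/2-KO-labelled libraries and 4829.9, 8380.1 and 6655 in the LATS1/2-Sox9-KO-labelled libraries. Trp63 was its most abundant gene in control and Acta2 in both deletion groups, where Acta2 was at 11572 ± 3414 and 4587 ± 776 beside 876 ± 186 in control. Relative to control, 2 of the 7 were higher and 3 lower in the LATS1/2-KO-labelled libraries, and 2 higher and 5 lower in the LATS1/2-Sox9-KO-labelled libraries. The sum of 8 endothelial markers was 8263, 6786 and 10477 in control, 1457, 906 and 1046 in the LATS1/2-KO-labelled libraries and 473, 1004 and 1154 in the LATS1/2-Sox9-KO-labelled libraries. Its most abundant gene was Vwf in control, Pecam1 (closely followed by Eng) in the LATS1/2-KO-labelled libraries and Kdr in the LATS1/2-Sox9-KO-labelled libraries, and Vwf was at 5133 ± 484, 162 ± 96.8 and 119.7 ± 59.6. Of the 8, 2 were lower (Vwf and Eng) and 1 was higher (Kdr) in the LATS1/2-KO-labelled libraries than in control, and 3 were lower (Vwf, Eng and Tek) and 1 was higher (Kdr) in the LATS1/2-Sox9-KO-labelled libraries. The defining endothelial markers Pecam1 and Cdh5 were at 335 ± 114 and 65.5 ± 15.5 in control and 279 ± 56.3 and 118 ± 48 in the LATS1/2-KO-labelled libraries, and did not pass the test against control in either deletion group. The sum of 4 adipocyte markers was 3.48, 12.5 and 8.71 in control, 7.02, 821 and 430.5 in the LATS1/2-KO-labelled libraries and 32.5, 212 and 158 in the LATS1/2-Sox9-KO-labelled libraries, and all 4 had counts in some library. Its most abundant gene was Plin1 in control and Cidec in both deletion groups, and 3 of the 4 (Adipoq, Cidec and Lep) were higher than control in both. The sums for leukocytes, fibroblasts and Schwann cells overlapped between the 3 groups, and Cd3e was at 0 in every library. The part of these cell types in the results was not tested, and in bulk samples fewer cells of a type and less RNA per cell cannot be told apart.

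Between the LATS1/2-KO-labelled libraries and control, 9 of the 41 tested members were higher and 9 were lower at an adjusted p of at most 0.05 in edgeR's quasi-likelihood test, where 28.7% of all tested genes were higher and 27.1% were lower. Log2 fold changes are given with their standard error. The members' median log2 fold change was 0.19, and that of all tested genes was 0.039. At a more than 2-fold change, 6 members were higher (Cldn1, Cldn6, Cldn9, Cldn12, Pard6b and Pard6g), beside 17.1% of all tested genes. Lower by more than 2-fold were 5 (Cldn8, Cldn10, Cldn15, Tjp3 and Marveld1), beside 17.5%. Cldn9 had no counts in control and passed the low-count filter only through the LATS1/2-KO-labelled libraries. Its call thus followed from the filter and is no support. The members that passed the test were thus no more frequent than among all genes. Without replicate 1 of the LATS1/2-KO-labelled libraries, 13 members were higher and 10 were lower. The share of all tested genes in that fit is not given here, so the rise is not read as particular to the members.

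Between the LATS1/2-Sox9-KO-labelled libraries and control, 15 members were higher and 11 were lower, beside 29.3% and 28.7% of all tested genes, with a median of 0.13 against 0.013. At more than 2-fold, 6 were higher and 6 were lower, beside 17.8% and 19.6% of all tested genes. Cldn9 was among the higher members here too, with the same limit from the filter. Both comparisons used the same control libraries. Between the LATS1/2-Sox9-KO-labelled libraries and the LATS1/2-KO-labelled libraries, 3 members were higher (Cldn1, Dlg1 and Llgl2) and 3 were lower (Cldn6, Cldn8 and Pard6g), where 3.13% and 3.33% of all tested genes were, and the medians were 0.07 and -0.015. More than 2-fold differences were seen for Cldn1 and Dlg1, beside 1.55% of all tested genes that were higher, and for Cldn8 and Pard6g, beside 2.16% that were lower. These counts rested on single libraries, and the shares of all tested genes without a library are not given here. The number of lower members was 6 without replicate 1 of the LATS1/2-KO-labelled libraries, and 1 without replicate 3 of the LATS1/2-KO-labelled libraries or any one of the LATS1/2-Sox9-KO-labelled libraries. The number of higher members was 1 without replicate 2 of the LATS1/2-Sox9-KO-labelled libraries. Dlg1 and Cldn8 passed the test in each of these cases.

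**Figure D1:**
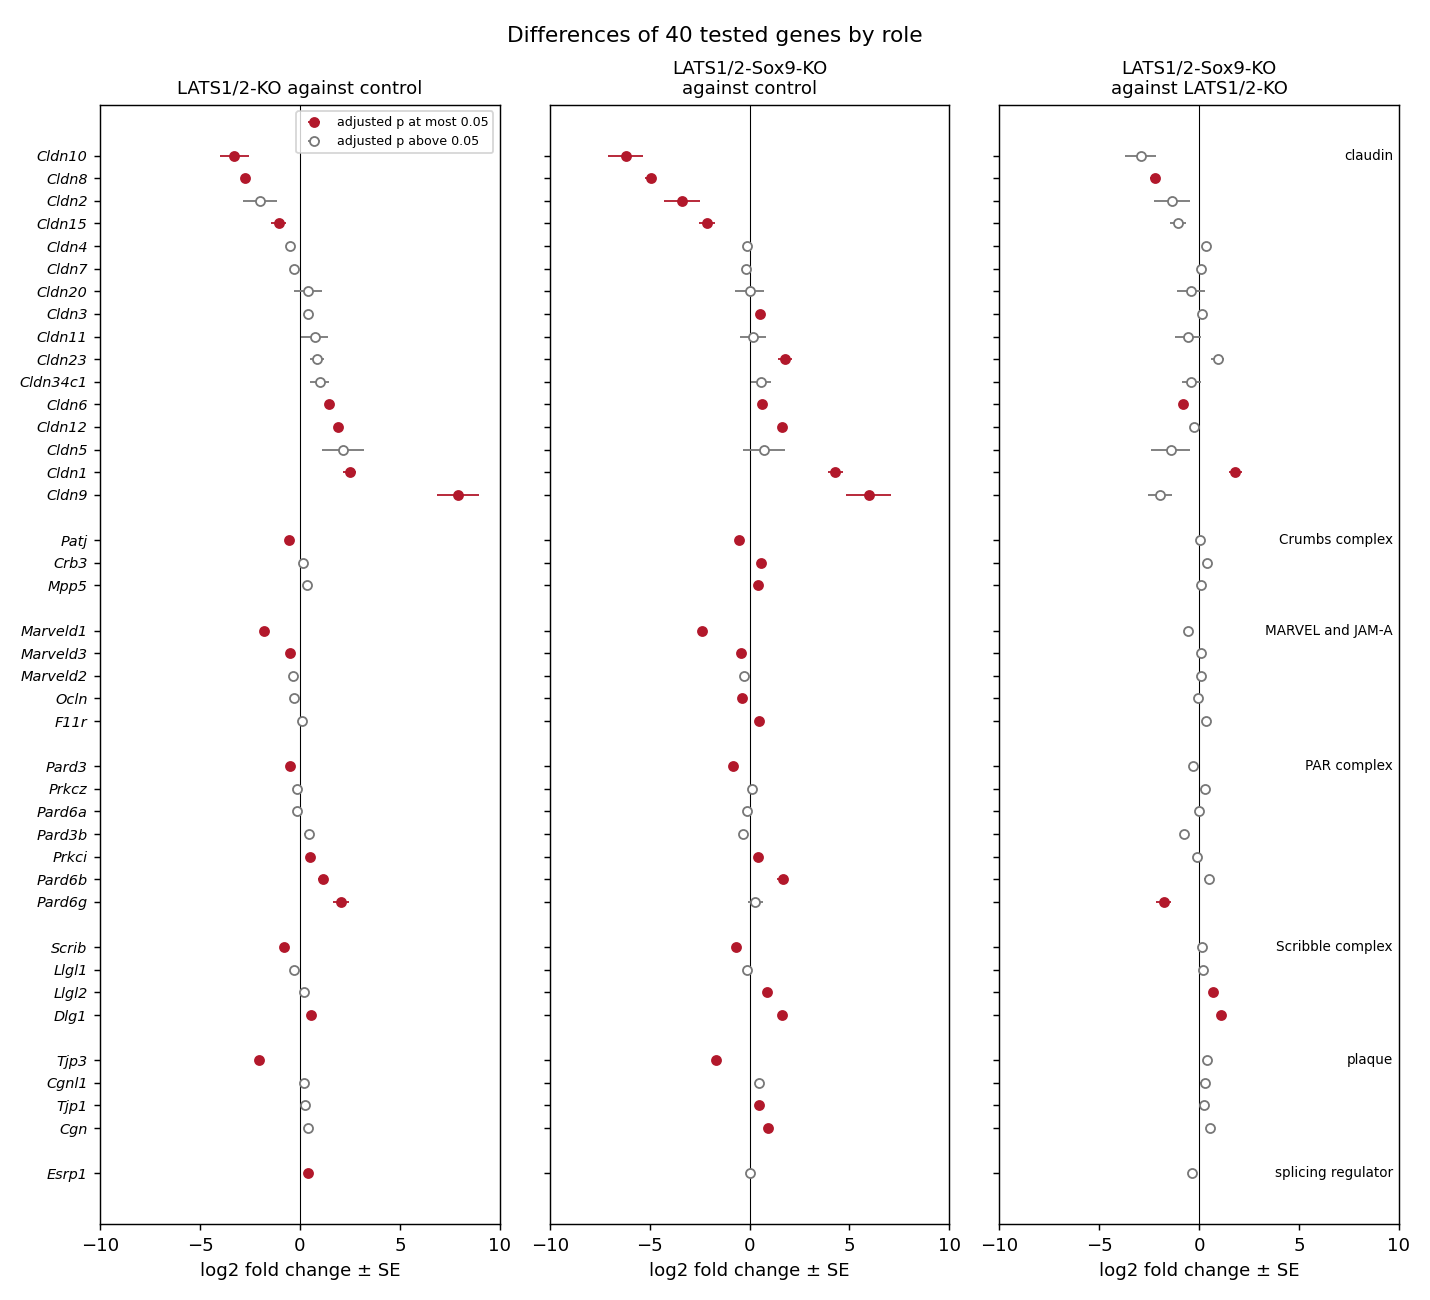
Log2 fold change with its standard error (x axis) of 40 of the 41 tested genes, grouped by role (y axis), in the 3 comparisons, with filled red points for an adjusted p of at most 0.05. The fold changes of claudins run from -3.29 for Cldn10 to 2.49 for Cldn1 in the LATS1/2-KO-labelled libraries, and the points of Cldn9, which had no counts in control, depend on a prior count and are no estimate of size.

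Claudins spanned a wider range of levels between genes than between genotypes. Levels per kilobase of exon, in FPKM, allow genes to be compared with each other. Cldn4, a sealing claudin of many secretory epithelia, was the most abundant in all 9 libraries, at 1545 ± 183 FPKM in control, 1110.1 ± 194 in the LATS1/2-KO-labelled libraries and 1419 ± 325 in the LATS1/2-Sox9-KO-labelled libraries (SD, n = 3). It was followed in each group by Cldn3, its neighbour on chromosome 5, at 346 ± 47.1, 459 ± 119 and 505 ± 101 FPKM. Cldn7, a claudin of the basolateral membrane that binds EpCAM, had rank 3 at 145 ± 9.6, 117 ± 20.2 and 126 ± 33.4 FPKM. The libraries of neighbours among these 3 ranks did not overlap in any group. The summed level of all claudins was 2116 ± 158 FPKM in control, 1795 ± 335 in the LATS1/2-KO-labelled libraries and 2215 ± 472 in the LATS1/2-Sox9-KO-labelled libraries (SD, n = 3), and the libraries of the 3 groups overlapped.

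The order below the first 3 differed between the genotypes. In control, Cldn8 had rank 4 at 28.2 ± 5.84 FPKM and Cldn10 rank 5 at 15.3 ± 4.28, and Cldn23 overlapped with its neighbours Cldn10 and Cldn6. In the LATS1/2-KO-labelled libraries, Cldn6, Cldn12, Cldn1 and Cldn23 followed Cldn7 at 30 ± 4.58, 27.2 ± 4.05, 24 ± 3.1 and 20.3 ± 9.21 FPKM, and neighbours in this order overlapped. In the LATS1/2-Sox9-KO-labelled libraries, Cldn1 had rank 4 at 83.6 ± 16.3 FPKM, above Cldn23 and below Cldn7 with no overlap. Cldn8 had rank 8 in both deletion groups, and Cldn10 had rank 9 and rank 11.

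**Figure D2:**
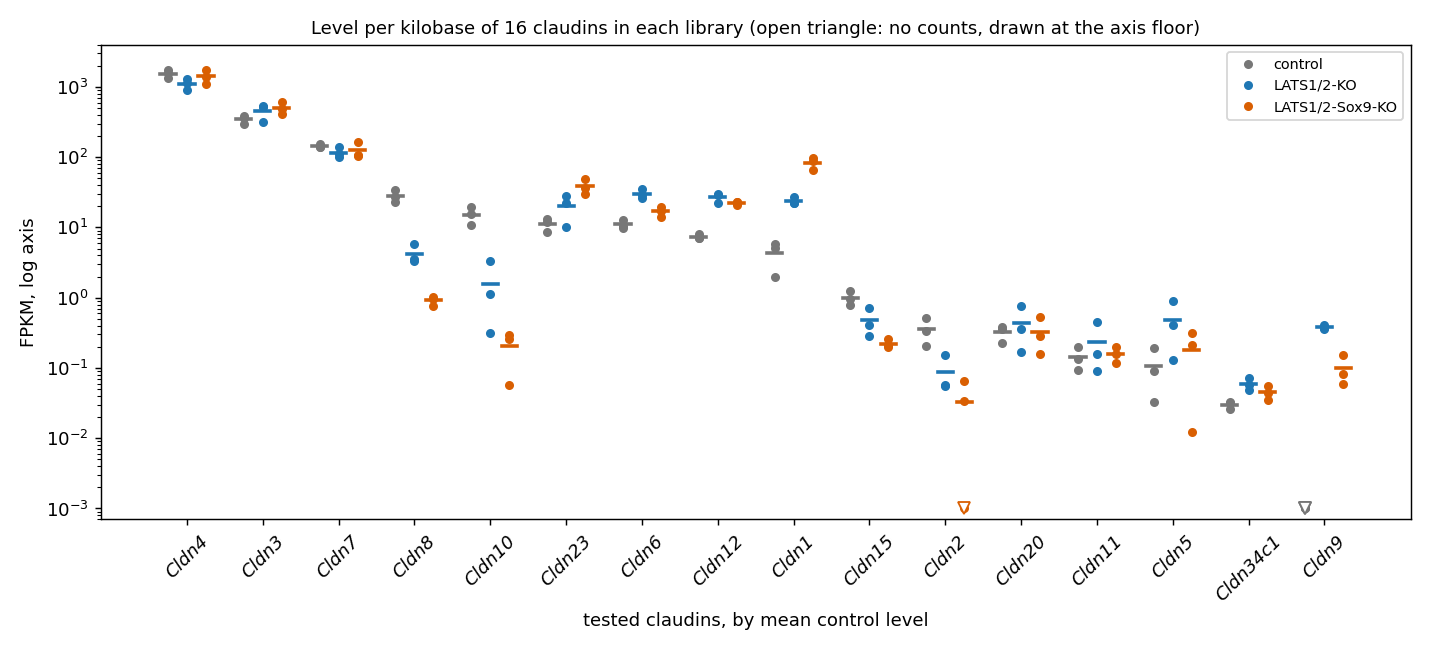
FPKM on a log axis (y axis) of the 16 tested claudins (x axis, ordered by control mean) in each library, with a bar for each group mean and an open triangle for a library without counts. Cldn4, Cldn3 and Cldn7 stand above the others, Cldn8 and Cldn10 descend from control to the deletion groups, and Cldn1 climbs from 4.27 ± 2 FPKM in control to 83.6 ± 16.3 in the LATS1/2-Sox9-KO-labelled libraries.

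The share of Cldn4 in the summed claudin level was 72.9% ± 3.80 in control, 62.0% ± 1.44 in the LATS1/2-KO-labelled libraries and 63.9% ± 1.01 in the LATS1/2-Sox9-KO-labelled libraries (SD, n = 3). Each control library was above each deletion library, although 3 libraries against 3 cannot reach an exact permutation p below 0.1. Cldn3 took 16.5% ± 2.84, 25.3% ± 2.47 and 22.9% ± 0.337, and Cldn7 took 6.88% ± 0.554, 6.53% ± 0.629 and 5.68% ± 0.541. The share of Cldn1 was 0.206% ± 0.106 in control, 1.36% ± 0.262 in the LATS1/2-KO-labelled libraries and 3.79% ± 0.304 in the LATS1/2-Sox9-KO-labelled libraries. Cldn8 held 1.33% ± 0.264 of the sum in control and 0.0427% ± 0.0124 in the LATS1/2-Sox9-KO-labelled libraries.

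**Figure D3:**
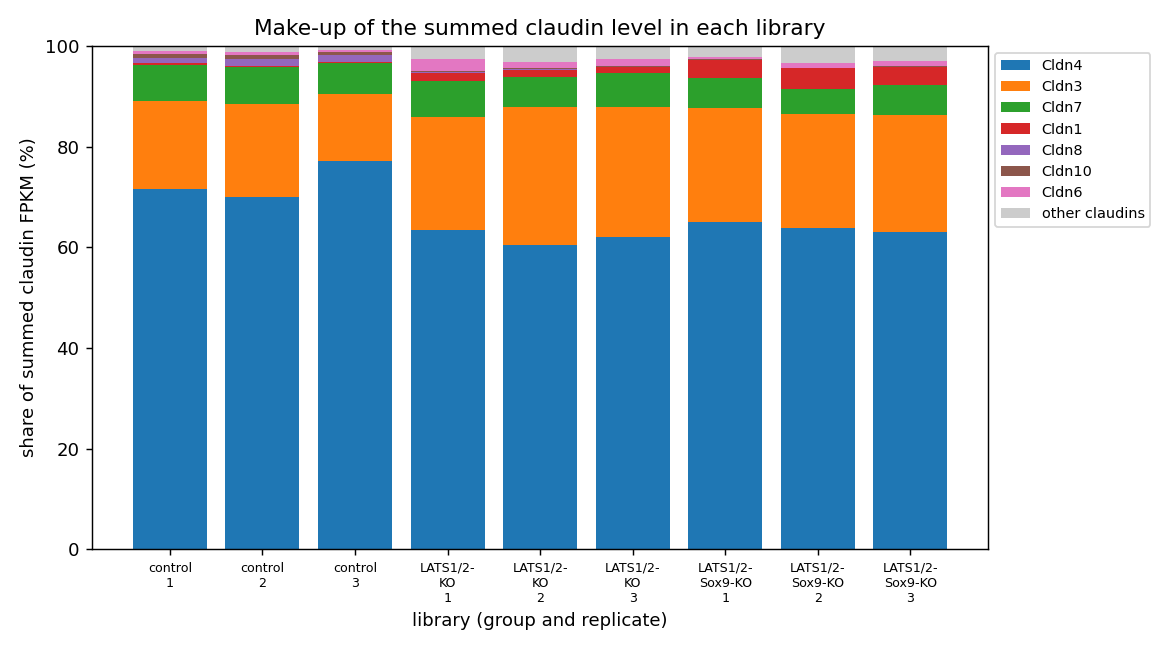
Share of the summed claudin FPKM in percent (y axis) held by 7 claudins and by all others together, stacked for each of the 9 libraries (x axis, group and replicate). Cldn4 holds 72.9% on average in control and 62.0% in the LATS1/2-KO-labelled libraries, and the band of Cldn1 widens to 3.79% in the LATS1/2-Sox9-KO-labelled libraries.

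Cldn1, the barrier-forming claudin of epidermis and other tight epithelia, was the claudin with the largest increase from a measurable level. The gene (ENSMUSG00000022512) lies at chr16:26356642-26371841 of GRCm38. It had 1323, 1498 and 519 normalized counts in control, 5812, 7183 and 5758 in the LATS1/2-KO-labelled libraries and 25134, 23225 and 17023 in the LATS1/2-Sox9-KO-labelled libraries. The 3 groups did not overlap, and control replicate 3 was lowest of all. The log2 fold change was 2.49 ± 0.34 (SE) in the LATS1/2-KO-labelled libraries (adjusted p = 0.000177) and 4.29 ± 0.37 in the LATS1/2-Sox9-KO-labelled libraries (adjusted p = 8.07e-06). The LATS1/2-Sox9-KO-labelled libraries were above the LATS1/2-KO-labelled libraries by 1.80 ± 0.33 (adjusted p = 0.0152), a call lost without replicate 3 of the LATS1/2-KO-labelled libraries (adjusted p = 0.0658) or replicate 2 of the LATS1/2-Sox9-KO-labelled libraries (adjusted p = 0.0568).

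Cldn12, an atypical claudin without the usual C-terminal motif that binds PDZ domains, had 1592, 1812 and 1592 normalized counts in control, 5139, 6648 and 6809 in the LATS1/2-KO-labelled libraries and 4801, 5236 and 5266 in the LATS1/2-Sox9-KO-labelled libraries. It was higher in both deletion groups, by 1.90 ± 0.13 (adjusted p = 3.84e-06) and 1.61 ± 0.13 (adjusted p = 5.53e-06) on the log2 scale. Between the deletion groups its difference of -0.28 ± 0.13 did not pass the test, and it passed without replicate 1 of the LATS1/2-KO-labelled libraries (adjusted p = 0.0441).

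Cldn6 and Cldn9 are close relatives known from embryonic epithelia, and the genes lie 137 bp apart on chromosome 17. Cldn6 (chr17:23679249-23682446) had 1176, 982 and 905 normalized counts in control, 3235, 2399 and 2696 in the LATS1/2-KO-labelled libraries and 1301, 1815 and 1613 in the LATS1/2-Sox9-KO-labelled libraries. All libraries of both deletion groups were above control, and the LATS1/2-Sox9-KO-labelled libraries were below the LATS1/2-KO-labelled libraries. The log2 fold change was 1.44 ± 0.17 in the LATS1/2-KO-labelled libraries (adjusted p = 7.63e-05), 0.63 ± 0.17 in the LATS1/2-Sox9-KO-labelled libraries (adjusted p = 0.00933) and -0.82 ± 0.17 between them (adjusted p = 0.0233). The last call was lost without replicate 3 of the LATS1/2-KO-labelled libraries or without any one of the LATS1/2-Sox9-KO-labelled libraries, with an adjusted p of up to 0.0702. Cldn9 had no counts in control, 28, 38 and 32 counts in the LATS1/2-KO-labelled libraries and 5, 12 and 7 in the LATS1/2-Sox9-KO-labelled libraries. Against a floor of 3 counts per control library, it was at least 8.43-fold higher in the LATS1/2-KO-labelled libraries and at least 2.16-fold higher in the LATS1/2-Sox9-KO-labelled libraries. Whether reads past the end of Cldn6 add to Cldn9 was not tested.

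Cldn8, a sealing claudin of tight distal epithelia such as the collecting duct, fell in steps. It had 2876, 3493 and 4349.8 normalized counts in control, 422, 735 and 458 in the LATS1/2-KO-labelled libraries and 122, 97.7 and 128 in the LATS1/2-Sox9-KO-labelled libraries, and the 3 groups did not overlap. Relative to control, it was lower, at a log2 fold change of -2.73 ± 0.24 (adjusted p = 1.46e-05) in the LATS1/2-KO-labelled libraries and of -4.94 ± 0.27 (adjusted p = 9.01e-07) in the LATS1/2-Sox9-KO-labelled libraries. The difference between the deletion groups was -2.21 ± 0.25 (adjusted p = 0.00269), and it passed the test without each library in turn.

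Cldn10, which forms ion-selective pores, had the lowest log2 fold change of the members in all 3 comparisons. It had 2725, 2132 and 1532 normalized counts in control, 457, 43.2 and 157 in the LATS1/2-KO-labelled libraries and 36.2, 7.97 and 41 in the LATS1/2-Sox9-KO-labelled libraries. The LATS1/2-KO-labelled libraries spread widely, with replicate 1 highest, and every one of them was above the LATS1/2-Sox9-KO-labelled libraries. The log2 fold change was -3.29 ± 0.74 in the LATS1/2-KO-labelled libraries (adjusted p = 0.00364) and -6.21 ± 0.87 in the LATS1/2-Sox9-KO-labelled libraries (adjusted p = 0.000182). Between the deletion groups, -2.93 ± 0.79 did not pass (adjusted p = 0.0566), and it ranged from -3.38 without replicate 2 of the LATS1/2-KO-labelled libraries (adjusted p = 0.02) to -1.79 without replicate 1 of them (adjusted p = 0.108). It also passed in DESeq2 (adjusted p = 0.0115) and with no filter on low counts (adjusted p = 0.00752). Without replicate 1, the LATS1/2-KO-labelled libraries were at -4.41 against control.

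Cldn15 and Cldn2 also form pores, and both were scarce. Cldn15 had 142, 109 and 89.6 in control, 82.2, 33 and 47.4 in the LATS1/2-KO-labelled libraries and 29.7, 23.9 and 22.8 in the LATS1/2-Sox9-KO-labelled libraries. Its fold change in the LATS1/2-KO-labelled libraries, -1.06 ± 0.39 (adjusted p = 0.0393), lost its call in 8 alternatives, among them the omission of replicate 1 or 2 of control, replicate 2 or 3 of the LATS1/2-KO-labelled libraries, or replicate 2 or 3 of the LATS1/2-Sox9-KO-labelled libraries (adjusted p of up to 0.136), while -2.15 ± 0.41 in the LATS1/2-Sox9-KO-labelled libraries passed (adjusted p = 0.00121). Cldn2 had 59.2, 93 and 37.3 in control, 27.1, 10.2 and 10 in the LATS1/2-KO-labelled libraries and 0, 5.98 and 11.8 in the LATS1/2-Sox9-KO-labelled libraries. It passed the test in the LATS1/2-Sox9-KO-labelled libraries (-3.38 ± 0.91, adjusted p = 0.00915) and not in the LATS1/2-KO-labelled libraries (adjusted p = 0.0651), where it did in 4 alternatives, among them DESeq2 (adjusted p = 0.0268) and the omission of replicate 1 of these libraries (adjusted p = 0.0367) or of replicate 1 of the LATS1/2-Sox9-KO-labelled libraries (adjusted p = 0.0178). The 3 pore-forming claudins were put side by side after their values were seen.

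The 3 abundant claudins differed less. Cldn4 had 152946, 132272 and 167816 normalized counts in control, 87983, 112195 and 125353 in the LATS1/2-KO-labelled libraries and 172402, 134379 and 109334 in the LATS1/2-Sox9-KO-labelled libraries. The LATS1/2-KO-labelled libraries lay below every control library, but the log2 fold change of -0.48 ± 0.19 narrowly missed the threshold (adjusted p = 0.0513), which it passed in 9 of 17 alternatives, among them DESeq2 (adjusted p = 0.0233), RLE scaling and the omission of replicate 3 of the LATS1/2-KO-labelled libraries. The LATS1/2-Sox9-KO-labelled libraries overlapped with control (-0.12 ± 0.19, adjusted p = 0.597). Cldn3 had 26162, 24308 and 19941 in control, 21762, 35285 and 36240.3 in the LATS1/2-KO-labelled libraries and 41595, 33192 and 27964 in the LATS1/2-Sox9-KO-labelled libraries. Replicate 1 of the LATS1/2-KO-labelled libraries was within the control range and the other two were above it, and the fold change of 0.41 ± 0.21 passed the test only without that replicate among the alternatives run (adjusted p = 0.0153 against 0.131). In the LATS1/2-Sox9-KO-labelled libraries, Cldn3 was 0.55 ± 0.21 above control (adjusted p = 0.0495), and this call was lost in 9 of 17 alternatives, among them RLE scaling and a minimum of 10 counts in each library, and without any one control library, without replicate 1 or 2 of the LATS1/2-Sox9-KO-labelled libraries or without replicate 3 of the LATS1/2-KO-labelled libraries (adjusted p of up to 0.157). Cldn7 had 16371, 14711 and 14555 in control, 10492, 11603 and 14581 in the LATS1/2-KO-labelled libraries and 17272, 11442 and 10984 in the LATS1/2-Sox9-KO-labelled libraries. Its fold changes were -0.32 ± 0.18 and -0.20 ± 0.18 in the deletion groups and passed in neither (adjusted p = 0.174 and 0.376), but did in the LATS1/2-Sox9-KO-labelled libraries without replicate 1 of these libraries (adjusted p = 0.037).

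Of the remaining tested claudins, Cldn23 had 1195, 1301 and 858 normalized counts in control, 1017, 2817 and 2213 in the LATS1/2-KO-labelled libraries and 3675, 4826 and 3022 in the LATS1/2-Sox9-KO-labelled libraries. Cldn23 was higher in the LATS1/2-Sox9-KO-labelled libraries (1.78 ± 0.34, adjusted p = 0.00129). In the LATS1/2-KO-labelled libraries its 0.85 ± 0.33 did not pass (adjusted p = 0.0516) and did in 6 alternatives, among them DESeq2 (adjusted p = 0.029) and the omission of replicate 1 of these libraries (adjusted p = 0.0023). Cldn5, the claudin of endothelium, had 6.96, 14.7 and 2.49 in control, 10, 31.3 and 68.4 in the LATS1/2-KO-labelled libraries and 0.928, 15.9 and 23.7 in the LATS1/2-Sox9-KO-labelled libraries, and no comparison passed the test, but the LATS1/2-KO-labelled libraries against control did without replicate 1 of these libraries (adjusted p = 0.0493). Cldn11, the claudin of myelin, was at 14.3 ± 5.35 normalized counts in control (SD, n = 3), Cldn20 was at 11.5 ± 3.09 and Cldn34c1 at 9.43 ± 1.14, and none of these passed in any comparison.

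Among the untested members, Cldn17 had at most 20 counts in a library, Cldn13 had 13, Cldn18 had 7 and the Pard3b antisense gene Pard3bos1 had 5. Cldn19, Cldn22 and Cldn34b2 had at most 1. The other 14, which include Cldn14 and Cldn16, had no counts in any library, where 3 counts is the floor for a gene at 0.

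The sequence before the transcription start is shown for 3 claudins, namely the most abundant one, the one with the largest increase from a measurable level and the one with the largest decrease. The sequences are those of RefSeq on GRCm38.p6, of up to 250 bases, and capitals mark matches to any of 4 motifs searched on both strands. The motifs were CATTCC for TEAD, the DNA-binding partner of YAP and TAZ, AACCNGTT for grainyhead factors, CAGGTG for E-box repressors such as ZEB1, and TGANTCA for AP-1.
Cldn4, minus strand, chr5:134946935-134947184: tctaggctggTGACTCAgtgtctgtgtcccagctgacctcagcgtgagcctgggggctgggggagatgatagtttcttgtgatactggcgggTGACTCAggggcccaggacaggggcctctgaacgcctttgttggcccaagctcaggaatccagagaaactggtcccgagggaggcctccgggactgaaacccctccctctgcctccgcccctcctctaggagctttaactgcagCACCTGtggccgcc
Cldn1, minus strand, chr16:26371842-26372089: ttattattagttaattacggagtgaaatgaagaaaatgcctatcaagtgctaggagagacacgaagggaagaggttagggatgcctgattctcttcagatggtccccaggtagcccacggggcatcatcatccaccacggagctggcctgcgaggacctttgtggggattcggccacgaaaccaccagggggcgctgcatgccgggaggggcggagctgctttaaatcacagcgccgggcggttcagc
Cldn10, plus strand, the first of its start sites, chr14:118787621-118787870: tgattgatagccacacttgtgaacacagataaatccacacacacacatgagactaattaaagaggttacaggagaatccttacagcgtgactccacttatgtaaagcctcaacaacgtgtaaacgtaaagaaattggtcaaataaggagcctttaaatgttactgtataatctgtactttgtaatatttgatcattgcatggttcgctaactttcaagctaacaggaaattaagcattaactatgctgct
The Cldn4 window held 2 matches to TGANTCA and 1 to CAGGTG, none of which overlapped, and the windows of Cldn1 and Cldn10 held none of the 4 motifs. RefSeq windows were found for 31 of the 41 tested members, with 48 start sites. CAGGTG was in 14 of the 48 windows (29.2%) and in 17.2% of all 32817 windows of the same length. The genes were Cldn4, Cldn6, Cldn7, Crb3, F11r, Ocln, Pard3, Pard6b, Patj, Prkcz and Tjp3. Start sites of the same gene count as separate windows, so these are not shares of genes. Crb3, Prkcz and Tjp3 each had more than 1 window with a match. CATTCC was in 6 of the 48 windows (12.5%), beside 12.6% of all, TGANTCA in 4 (8.33%), beside 6.75%, and AACCNGTT in 2 (4.17%), beside 1.78%. A match is a description of the sequence, and binding was not measured.

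The MARVEL proteins and JAM-A gave 2 lower and no higher genes of 5 in the LATS1/2-KO-labelled libraries, and 3 lower and 1 higher in the LATS1/2-Sox9-KO-labelled libraries. Of all tested genes, 27.1% were lower and 28.7% were higher in the former, and 28.7% and 29.3% in the latter. Marveld1 had 1129, 1430.0 and 1583 normalized counts in control, 368, 331 and 471 in the LATS1/2-KO-labelled libraries and 265, 265 and 273 in the LATS1/2-Sox9-KO-labelled libraries. It was lower, at a log2 fold change of -1.82 ± 0.19 (adjusted p = 3.25e-05) and -2.36 ± 0.19 (adjusted p = 6.14e-06), and neither deletion group overlapped with control. Marveld1 was included by its symbol, and whether its protein is part of the junction was not tested. Marveld3, which sits in the tight junction with occludin and tricellulin, was lower, at a log2 fold change of -0.49 ± 0.13 in the LATS1/2-KO-labelled libraries (adjusted p = 0.00898). Its -0.41 ± 0.13 in the LATS1/2-Sox9-KO-labelled libraries (adjusted p = 0.0218) lost the call with no filter on low counts and without control replicate 1 or replicate 2 or 3 of the LATS1/2-Sox9-KO-labelled libraries (adjusted p of up to 0.105). Ocln, which encodes occludin, had 11294, 9891 and 7624 in control, 7985, 7942 and 7496 in the LATS1/2-KO-labelled libraries and 7825, 7361 and 7304 in the LATS1/2-Sox9-KO-labelled libraries. Control replicate 3 lay within the deletion groups. Its -0.30 ± 0.13 in the LATS1/2-KO-labelled libraries did not pass (adjusted p = 0.0839) and did without control replicate 3 (adjusted p = 0.00496). Its -0.36 ± 0.13 in the LATS1/2-Sox9-KO-labelled libraries passed at an adjusted p of 0.043, and the call was lost in 11 of 17 alternatives, among them the omission of control replicate 1 or 2, of any library of the LATS1/2-KO-labelled libraries and of any library of the LATS1/2-Sox9-KO-labelled libraries (adjusted p of up to 0.19). Marveld2, which encodes the tricellulin of tricellular contacts, passed in neither (-0.35 ± 0.15 and -0.28 ± 0.15), but did in both without control replicate 3 (adjusted p = 0.00671 and 0.0164). In the LATS1/2-KO-labelled libraries it also passed in DESeq2 (adjusted p = 0.037), with RLE scaling (adjusted p = 0.0432) and with a minimum of 10 counts in each library (adjusted p = 0.0482). F11r, the gene of JAM-A, had 18528, 19273 and 18655 in control, 22826, 19289.6 and 19479 in the LATS1/2-KO-labelled libraries and 29894, 24580.2 and 24161 in the LATS1/2-Sox9-KO-labelled libraries, and was higher than control in the latter (0.48 ± 0.12, adjusted p = 0.00503). Between the deletion groups it passed only in DESeq2 (adjusted p = 0.0496) and without replicate 1 of the LATS1/2-KO-labelled libraries (adjusted p = 0.0499) among the alternatives run.

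Among 5 genes of plaque proteins, 1 was lower and none was higher in the LATS1/2-KO-labelled libraries, and 1 was lower and 2 were higher in the LATS1/2-Sox9-KO-labelled libraries, beside 27.1% and 28.7% of all tested genes in the former and 28.7% and 29.3% in the latter. Tjp3, which encodes ZO-3, had 6617, 7060.3 and 5877 normalized counts in control, 1623, 1432 and 1664 in the LATS1/2-KO-labelled libraries and 2781, 1672 and 1729 in the LATS1/2-Sox9-KO-labelled libraries. Both deletion groups were well below control, at log2 fold changes of -2.05 ± 0.19 (adjusted p = 2.03e-05) and -1.66 ± 0.19 (adjusted p = 5.32e-05). Tjp1, which encodes ZO-1, the scaffold on which claudin strands assemble, had 13494, 13453 and 12328 in control, 14910.5, 16367 and 15818 in the LATS1/2-KO-labelled libraries and 20037, 19178 and 16054 in the LATS1/2-Sox9-KO-labelled libraries. It was higher in the LATS1/2-Sox9-KO-labelled libraries (0.49 ± 0.11, adjusted p = 0.0029), and 0.26 ± 0.11 in the LATS1/2-KO-labelled libraries did not pass (adjusted p = 0.0612) and did in 3 alternatives, with upper-quartile scaling giving the lowest adjusted p of 0.0313. Cgn, the gene of cingulin, had 8409, 8447 and 8386 in control, 12144, 9022 and 12267 in the LATS1/2-KO-labelled libraries and 20527, 14025 and 13523 in the LATS1/2-Sox9-KO-labelled libraries, and was higher in the LATS1/2-Sox9-KO-labelled libraries (0.93 ± 0.18, adjusted p = 0.00121). Its 0.41 ± 0.17 in the LATS1/2-KO-labelled libraries missed the threshold (adjusted p = 0.072) and passed it in 4 alternatives, among them the fits without replicate 2 of these libraries (adjusted p = 0.0301) or without replicate 1 of the LATS1/2-Sox9-KO-labelled libraries (adjusted p = 0.0218). Per kilobase, Tjp3 was at 32.6 ± 2.99 FPKM and Tjp1 at 31.1 ± 1.57 FPKM in control, and in the LATS1/2-KO-labelled libraries they were at 7.87 ± 0.619 and 37.3 ± 1.75.

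In the PAR complex, 3 of 7 genes were higher and 1 was lower in the LATS1/2-KO-labelled libraries, where 28.7% and 27.1% of all tested genes were. The 3 Pard6 genes encode the same adaptor subunit, which joins atypical protein kinase C to Cdc42. Pard6g (ENSMUSG00000056214) had 408, 646 and 1075 normalized counts in control, 1566, 3181 and 4124 in the LATS1/2-KO-labelled libraries and 797, 849 and 935 in the LATS1/2-Sox9-KO-labelled libraries. The LATS1/2-Sox9-KO-labelled libraries lay within the control range, and the LATS1/2-KO-labelled libraries were above both. The log2 fold change was 2.06 ± 0.39 in the LATS1/2-KO-labelled libraries (adjusted p = 0.00136), 0.28 ± 0.38 in the LATS1/2-Sox9-KO-labelled libraries (adjusted p = 0.553) and -1.78 ± 0.38 between them (adjusted p = 0.0273), a call lost without replicate 2 or 3 of the LATS1/2-KO-labelled libraries or any one of the LATS1/2-Sox9-KO-labelled libraries (adjusted p of up to 0.105). Pard6b had 3268, 3896 and 2808 in control, 6687, 6977 and 8624 in the LATS1/2-KO-labelled libraries and 15345, 8614 and 7379.7 in the LATS1/2-Sox9-KO-labelled libraries. It was higher in both deletion groups (1.16 ± 0.26, adjusted p = 0.00328, and 1.65 ± 0.26, adjusted p = 0.00037), and replicate 1 of the LATS1/2-Sox9-KO-labelled libraries was far above the other two. Pard6a passed in no comparison, at 3.69 ± 0.469 FPKM in control.

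The scaffold gene Pard3 had 6395, 6112 and 6461 normalized counts in control, 4131, 4005 and 5104 in the LATS1/2-KO-labelled libraries and 4144, 3173 and 3429 in the LATS1/2-Sox9-KO-labelled libraries. It was lower in both deletion groups, at log2 fold changes of -0.52 ± 0.13 (adjusted p = 0.00718) and -0.82 ± 0.13 (adjusted p = 0.00045). Prkci, the gene of the atypical kinase PKC iota, had 14576, 12159 and 11983 in control, 16634, 20034 and 18362 in the LATS1/2-KO-labelled libraries and 19218, 16678 and 15138 in the LATS1/2-Sox9-KO-labelled libraries. It was higher by 0.51 ± 0.13 (adjusted p = 0.00701) and 0.40 ± 0.13 (adjusted p = 0.0219), and the second call was lost without control replicate 2 or 3 or replicate 1 of the LATS1/2-Sox9-KO-labelled libraries (adjusted p of up to 0.0801). The kinase gene Prkcz and the relative Pard3b passed in no comparison. Without replicate 1 of the LATS1/2-KO-labelled libraries, Pard3b passed against control in these libraries (adjusted p = 0.0431) and between the deletion groups (adjusted p = 0.0307), and the latter passed in DESeq2 (adjusted p = 0.00876) and with upper-quartile scaling (adjusted p = 0.0446) too. Levels were 3.82 ± 0.476 and 0.783 ± 0.103 FPKM in control for Prkcz and Pard3b, beside 43.2 ± 4.85 for Prkci.

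Of 3 genes of the Crumbs complex, 1 was lower and none was higher in the LATS1/2-KO-labelled libraries, where 27.1% and 28.7% of all tested genes were. In the LATS1/2-Sox9-KO-labelled libraries, 2 were higher and 1 was lower, beside 29.3% and 28.7%. No Crumbs gene differed by more than 2-fold. Patj, the multi-PDZ scaffold of the complex, had 9678, 9426 and 9848 normalized counts in control, 6909, 5918 and 6744 in the LATS1/2-KO-labelled libraries and 7606, 6401 and 6255 in the LATS1/2-Sox9-KO-labelled libraries, and was lower, at a log2 fold change of -0.56 ± 0.11 (adjusted p = 0.00148) and -0.51 ± 0.11 (adjusted p = 0.00234). Crb3, the transmembrane subunit of epithelia, had 3004, 2939 and 2688 in control, 3038, 3285 and 3217 in the LATS1/2-KO-labelled libraries and 5019, 3971 and 3716 in the LATS1/2-Sox9-KO-labelled libraries. It was higher in the LATS1/2-Sox9-KO-labelled libraries (0.56 ± 0.13, adjusted p = 0.00348) and did not pass in the LATS1/2-KO-labelled libraries (0.14 ± 0.13, adjusted p = 0.356). Mpp5, the adaptor that links these subunits, was 0.43 ± 0.14 above control in the LATS1/2-Sox9-KO-labelled libraries (adjusted p = 0.0263), a call lost without control replicate 1 or 2 or replicate 1 or 3 of the LATS1/2-Sox9-KO-labelled libraries (adjusted p of up to 0.102). In the LATS1/2-KO-labelled libraries, its 0.36 ± 0.14 did not pass (adjusted p = 0.0553). It did with upper-quartile scaling (adjusted p = 0.0393) and without replicate 3 of these libraries (adjusted p = 0.0132).

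The Scribble complex held the member with the smallest adjusted p between the deletion groups. Dlg1, the gene of a membrane scaffold with PDZ domains (ENSMUSG00000022770, chr16:31663443-31875129), had 13894, 12854 and 14731 normalized counts in control, 22006, 19054 and 19263 in the LATS1/2-KO-labelled libraries and 43166, 45119.9 and 40528 in the LATS1/2-Sox9-KO-labelled libraries. The groups were in this order with no overlap and little spread. The log2 fold change was 0.54 ± 0.10 in the LATS1/2-KO-labelled libraries (adjusted p = 0.0014), 1.63 ± 0.11 in the LATS1/2-Sox9-KO-labelled libraries (adjusted p = 1.84e-06) and 1.09 ± 0.10 between them (adjusted p = 0.0014), and all 3 passed without each library in turn. Llgl2, an epithelial lethal giant larvae gene, had 2584, 2318 and 2073 in control, 2578, 2277 and 3120.1 in the LATS1/2-KO-labelled libraries and 4917, 3855 and 3908 in the LATS1/2-Sox9-KO-labelled libraries. The LATS1/2-KO-labelled libraries overlapped with control (0.19 ± 0.15, adjusted p = 0.311), and the LATS1/2-Sox9-KO-labelled libraries were above both, by 0.86 ± 0.15 (adjusted p = 0.000849) and 0.67 ± 0.15 (adjusted p = 0.0329). The latter call was lost in a fit of the compared groups alone and without control replicate 2, replicate 1 or 2 of the LATS1/2-KO-labelled libraries or any one of the LATS1/2-Sox9-KO-labelled libraries (adjusted p of up to 0.0841). Scrib, which gives the complex its name, had 6943, 6181 and 6452 in control, 3731, 3004 and 4412 in the LATS1/2-KO-labelled libraries and 4899, 3627 and 3734 in the LATS1/2-Sox9-KO-labelled libraries, and was lower in both (-0.81 ± 0.16, adjusted p = 0.00185, and -0.68 ± 0.16, adjusted p = 0.00485). Llgl1 passed in no comparison, but did in the LATS1/2-KO-labelled libraries without replicate 3 of these libraries (adjusted p = 0.046).

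Esrp1, which encodes an RNA-binding protein that keeps epithelial splice forms, had 12263, 12940.1 and 11204 normalized counts in control, 12972, 17972 and 17599 in the LATS1/2-KO-labelled libraries and 12223, 12567 and 12379 in the LATS1/2-Sox9-KO-labelled libraries. It was higher in the LATS1/2-KO-labelled libraries (0.42 ± 0.13, adjusted p = 0.0206), a call lost without control replicate 1 or 3 or replicate 2 or 3 of the LATS1/2-KO-labelled libraries (adjusted p of up to 0.0888). The LATS1/2-Sox9-KO-labelled libraries were within the control range (0.03 ± 0.13, adjusted p = 0.86). Between the deletion groups, -0.39 ± 0.13 did not pass (adjusted p = 0.113) and did without replicate 1 of the LATS1/2-KO-labelled libraries (adjusted p = 0.016).

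**Figure D4:**
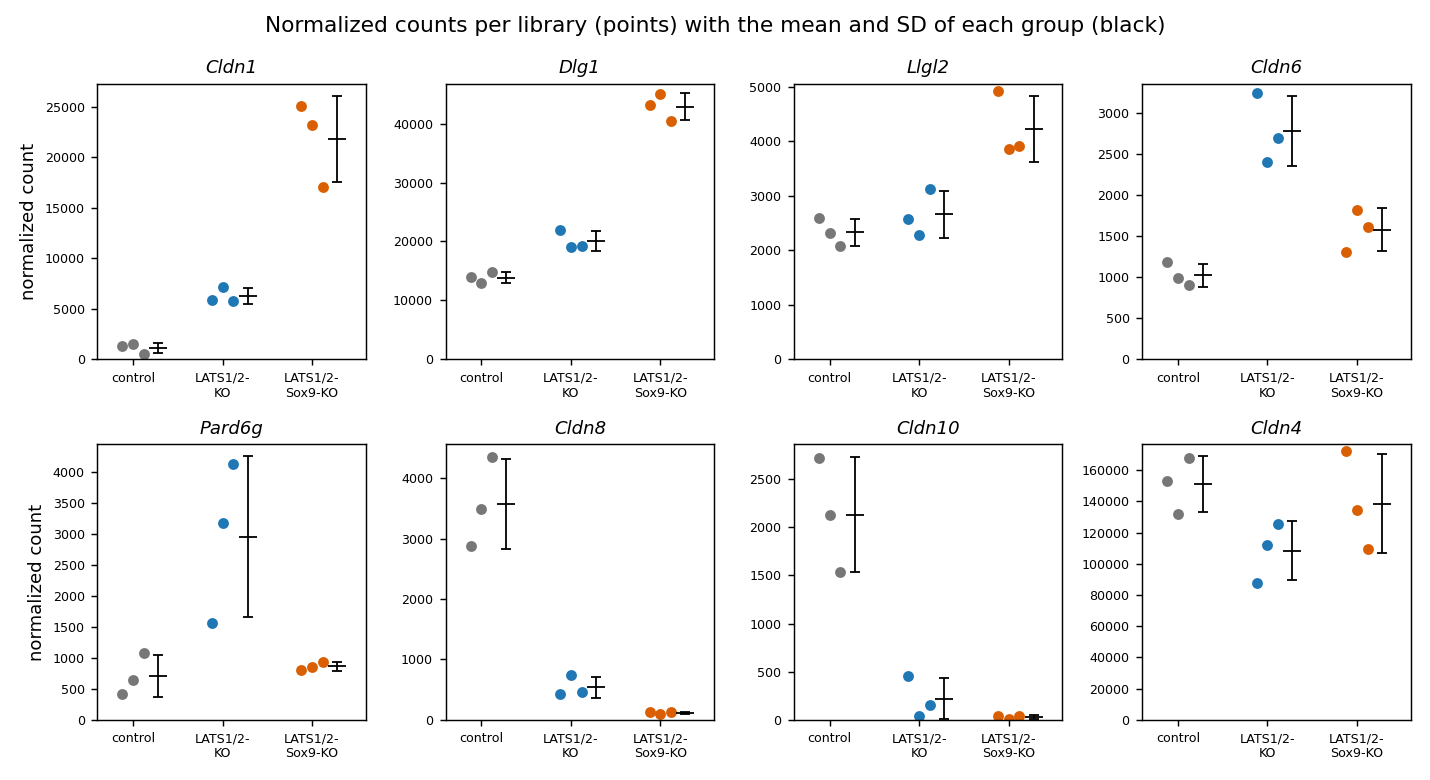
Normalized counts (y axis, from 0) per library (points) with the mean and SD of each group (black) for the 6 genes that differed between the deletion groups, and for Cldn10 and Cldn4 (x axis, the 3 groups as labelled). Cldn1 and Dlg1 are highest in the LATS1/2-Sox9-KO-labelled libraries, Cldn6 and Pard6g are highest in the LATS1/2-KO-labelled libraries, and Cldn8 and Cldn10 are lowest in the LATS1/2-Sox9-KO-labelled libraries.

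The deletion groups were thus ordered differently by different genes. Relative to the LATS1/2-KO-labelled libraries, the LATS1/2-Sox9-KO-labelled libraries had more Cldn1, Dlg1 and Llgl2, and less Cldn8, in the direction in which both deletion groups already differed from control for Cldn1, Dlg1 and Cldn8. For Cldn6 and Pard6g, the LATS1/2-Sox9-KO-labelled libraries lay between the LATS1/2-KO-labelled libraries and control or within the control range. For Cldn6, a difference from control of 0.63 remained. The other 35 tested members did not pass the test between the deletion groups. A missed threshold does not show that their levels were equal.

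The remaining junction genes came from lists of partners. Calls of partner genes were not followed through the alternative fits or the omission of single libraries. Of 23 tested tight junction partners, 9 were higher and 9 lower in the LATS1/2-KO-labelled libraries, where 28.7% and 27.1% of all tested genes were, with a median of -0.04 beside 0.039 over all tested genes. In the LATS1/2-Sox9-KO-labelled libraries, 8 were higher and 7 lower, beside 29.3% and 28.7%. Amot, Amotl1 and Amotl2 encode the angiomotins, junction scaffolds that bind YAP. Amot was at 1462 ± 87.3 normalized counts in control, 36417 ± 5876 in the LATS1/2-KO-labelled libraries and 43847 ± 4382 in the LATS1/2-Sox9-KO-labelled libraries (SD, n = 3), and it rose most in this list, by 4.64 ± 0.16 in the LATS1/2-KO-labelled libraries (adjusted p = 1.17e-07). Amotl2 was higher by 1.88 ± 0.15 (adjusted p = 7.78e-06). Mpdz, the paralog of Patj that scaffolds claudins through its PDZ domains, was at 1039 ± 370.3, 7834 ± 2748 and 3902 ± 596, higher by 2.91 ± 0.33 in the LATS1/2-KO-labelled libraries (adjusted p = 5.27e-05). Arhgef11, a RhoA activator that binds ZO-1, was the one tight junction partner that passed the test as lower by more than 2-fold in the LATS1/2-KO-labelled libraries (-1.37 ± 0.15, adjusted p = 4.65e-05). Jam2 was the one tight junction partner that passed the test at more than 2-fold between the deletion groups, at 201 ± 95.2 in the LATS1/2-KO-labelled libraries and 47.9 ± 12.6 in the LATS1/2-Sox9-KO-labelled libraries (-2.07 ± 0.40, adjusted p = 0.0183). Epcam, whose protein binds claudin-7, was at 117598 ± 9042 in control, 70308 ± 4626 in the LATS1/2-KO-labelled libraries and 47805 ± 2895 in the LATS1/2-Sox9-KO-labelled libraries, and it fell in each comparison (adjusted p = 0.000215, 6.18e-06 and 0.0164).

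Of 20 tested polarity partners, 5 were higher and 8 lower in the LATS1/2-KO-labelled libraries, beside 28.7% and 27.1% of all tested genes, with a median of -0.13 against 0.039. Msn, the gene of moesin, which links the membrane to actin, was at 2833 ± 84.6 normalized counts in control, 69464 ± 6186 in the LATS1/2-KO-labelled libraries and 81034 ± 3533 in the LATS1/2-Sox9-KO-labelled libraries (4.62 ± 0.11 in the LATS1/2-KO-labelled libraries, adjusted p = 3.48e-08). Its relative Ezr, the ezrin of microvilli, was at 68618 ± 5822, 126181 ± 3912 and 225437 ± 28206, and the LATS1/2-Sox9-KO-labelled libraries were above the LATS1/2-KO-labelled libraries by 0.84 ± 0.12 (adjusted p = 0.00614). The Dlg1 paralogs Dlg4 and Dlg3 were lower in the LATS1/2-KO-labelled libraries, at log2 fold changes of -3.57 ± 0.32 (adjusted p = 1.56e-05) and -1.23 ± 0.20 (adjusted p = 0.000513), whereas Dlg1 was higher. Of the PAR-1 kinases, Mark2 was lower, at a log2 fold change of -1.51 ± 0.15 in the LATS1/2-KO-labelled libraries (adjusted p = 2.81e-05) and Mark1 was higher by 1.55 ± 0.34 (adjusted p = 0.0032). Mark1 was at 83.9 ± 15.1 in control and 89.1 ± 20.8 in the LATS1/2-Sox9-KO-labelled libraries, which lay below the LATS1/2-KO-labelled libraries, at a log2 fold change of -1.47 ± 0.34 (adjusted p = 0.0335).

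Of 15 epithelial transcription and splicing regulators, 9 were lower and 2 higher in the LATS1/2-KO-labelled libraries, beside 27.1% and 28.7% of all tested genes, with a median of -0.77 against 0.039. In the LATS1/2-Sox9-KO-labelled libraries, 9 were lower and 3 higher, beside 28.7% and 29.3%. The list was chosen with earlier results of these data known, so its difference from all genes is no test. Elf3, Gata3 and Rbm47 had the lowest log2 fold changes in the LATS1/2-KO-labelled libraries, at -2.87 ± 0.30, -2.39 ± 0.23 and -2.20 ± 0.18 (adjusted p = 3.29e-05, 2.24e-05 and 8.67e-06). Elf3 was at 20873 ± 4081 normalized counts in control and 2847 ± 156 in the LATS1/2-KO-labelled libraries. Ovol2, a repressor that guards epithelial identity, was higher by 1.57 ± 0.19 (adjusted p = 7.36e-05), from 242 ± 45.1 to 719 ± 87.1. The grainyhead genes Grhl1 and Grhl2, activators of claudin genes in other epithelia, were lower, at a log2 fold change of -1.43 ± 0.13 and -0.99 ± 0.12 (adjusted p = 1.83e-05 and 7.45e-05). Their relative Grhl3 was higher in the LATS1/2-Sox9-KO-labelled libraries than in control (1.34 ± 0.29, adjusted p = 0.00283). In the LATS1/2-KO-labelled libraries, Grhl3 did not pass the test (0.30 ± 0.29, adjusted p = 0.401). Esrp2, the paralog of Esrp1, was lower, at a log2 fold change of -0.66 ± 0.09 (adjusted p = 0.000259), opposite to Esrp1.

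Of 9 repressors of junction genes, 4 were higher and 1 was lower in the LATS1/2-KO-labelled libraries, beside 28.7% and 27.1% of all tested genes, with a median of 0.21 against 0.039. Twist1, Twist2 and Zeb2 had the largest increases, at 3.29 ± 0.91, 2.79 ± 0.68 and 2.05 ± 0.48 (adjusted p = 0.0114, 0.00579 and 0.0045). Their levels stayed low, with 32.1 ± 12.3, 17 ± 6.03 and 87.8 ± 31.6 normalized counts in the LATS1/2-KO-labelled libraries. Snai1 and Snai2, which repress claudin and occludin genes in other epithelia, passed in no comparison, with 123 ± 21.7 and 23.4 ± 21.9 in control and 142 ± 99 and 26.8 ± 17.8 in the LATS1/2-KO-labelled libraries.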

How the data were processed

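RNA-sequencing counts of 9 libraries from sorted EYFP+ mammary cells were analysed, with 3 libraries per group by the labels. The deposited values are raw counts per library, which the authors obtained with STAR (2.6.0c) on mm10 and with featureCounts (Subread 1.6.2), using proper pairs that aligned uniquely to non-mitochondrial Ensembl genes. The kit does not mark strand while the methods state same-strand counting, so reads of a gene and its antisense partner cannot be told apart. No tested member shared more than 4.4% of its exon bases with another gene.

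In R 4.3.3, edgeR 4.0.16 (filterByExpr, TMM, glmQLFit and glmQLFTest) was fitted to the 9 libraries with 1 mean per group, and Benjamini-Hochberg adjustment covered 19357 genes. A member was called at an adjusted p of at most 0.05, and at 2-fold with an absolute log2 fold change above 1. FPKM used the union of exons in GENCODE M21, whose symbols matched 55104 of 55450 gene identifiers. Coordinates are counted from 1.

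Values in every library are given for members with the largest called changes in the LATS1/2-KO-labelled libraries (up to 6 per direction, mean normalized count of at least 100), for members that differed between the deletion groups and for 12 core members, and the 3 largest called changes per direction are named from each partner list. Other genes were named for their role. The values of 1 tested member are not reported here. The members and lists were chosen with earlier results of these data known. Alternatives used DESeq2 1.42.0, other scaling (RLE, upper quartile, or TMM on all but the 100 most counted genes), other filters (none, or 10 counts in each library), only 2 groups, a replicate block, 1 library fewer, glmTreat, and FPKM from the longest transcript or the library total. The fit was tested on simulated counts with 200 genes changed, far fewer than were called in the real comparisons with control. Of changes of 1.5 on the log2 scale, 46.5% were recovered for LATS1/2-KO against control. The share was 70.3% for LATS1/2-Sox9-KO against control and 52.9% between the deletion groups. A missed threshold thus does not show an unchanged level. The depth makes counting error small for the abundant members, and n = 3 sets the precision. The authors' tumor signatures and human data were not analysed here.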

Additional observations from a re-analysis of the deposited data

How the results depend on the processing

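Of 50 fold changes of members that passed the test, all 50 kept their direction and 39 passed in every alternative that tested the gene, glmTreat left aside. In the comparison of the deletion groups, DESeq2 gave 6 higher and 5 lower members in place of 3 and 3, and glmTreat, which tests against a 2-fold change, called 0 higher members and 1 lower in place of 2 and 2 (1 and 4 at an unadjusted p of at most 0.05). Leaving out one library at a time gave from 1 to 3 higher and from 1 to 6 lower members there, and from 1 to 2 in each direction at 2-fold. The cause was not tested. Shares of all tested genes in these fits are not given here, so the counts are not read as particular to the members. With the longest transcript as the gene length, the share of Cldn4 per kilobase became 70.5% in control. It became 59.8% and 61.8% in the libraries with the LATS1/2-KO and LATS1/2-Sox9-KO labels. Lats2 for LATS1/2-KO against control passed the test in 6 of 17 alternatives. Among them were a fit of these groups alone (log2 fold change 0.52) and upper-quartile factors (0.54). It also passed without control replicate 3 (adjusted p = 0.0421) or LATS1/2-KO replicate 1 (adjusted p = 0.0361). The same held without LATS1/2-Sox9-KO replicate 1 or 3 (adjusted p = 0.0429 and 0.0466). The fold change of Lats2 ranged from 0.38 to 0.61 without one library. Directions that turned belonged to fold changes that did not pass the test. Without one library, Cldn3 ranged from -0.0611 to 0.28 and Cldn7 from -0.10 to 0.26 between the deletion groups, and Cldn4 from -0.29 to 0.0363 and Esrp1 from -0.0164 to 0.0773 between LATS1/2-Sox9-KO and control. Scaling moved the median of all genes by less than 0.1.

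With the replicate number as a block, 10 members were higher and 9 lower for LATS1/2-KO against control. For LATS1/2-Sox9-KO against control, 14 were higher and 11 lower, and between the deletion groups 3 and 3. Shares of all tested genes with the block are not given here. Among the genes near the threshold, Cldn3 for LATS1/2-Sox9-KO against control lost its call with the block (adjusted p = 0.0754), and Cldn23 for LATS1/2-KO against control gained one (adjusted p = 0.0463). Deviations of same-numbered libraries correlated from -0.066 to 0.17, so the numbers were not taken as pairs.

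Depth limits Cldn9, Cldn2, Cldn5 and the other scarce claudins.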
